A study of Mus musculus with 6 samples.

Results

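The expression of 38 mouse genes of the interferon response and of antigen presentation was followed in neurospheres, floating colonies of neural stem and progenitor cells, grown from adult offspring of mothers injected with PBS or with MG. Of the 38 genes, 35 were measured by a probe set of their own, among 22180 genes so measured. The genes were chosen by function by someone who already knew results of these arrays, and the rule that defines them names Trim21 as higher and Ly6e as lower in the MG arrays. The difference between MG and PBS is therefore given for these genes as a description, without a test. Symbols follow the array annotation, updated through RefSeq (Ddx58 is the gene of the RNA sensor RIG-I). The probe set with the highest mean over the 6 arrays was used where a gene had more than 1.

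RNA came from 6 CD1 mice, an outbred stock, with 3 animals in each group. The mothers received PBS or 0.5 mg/kg MG, read here as methylglyoxal from the series title, by intraperitoneal injection 2 times a day from gestational day 12 until birth. At an age of 2 months the offspring gave cells of the subventricular zone, which were cultured for 7 days in 20 ng/ml EGF and 10 ng/ml FGF2, and the RNA was hybridised to Affymetrix Mouse Gene 2.0 ST arrays. Titles, tissue labels and growth protocol call the neurospheres primary, grown directly from the tissue, whereas the sample descriptions call them secondary, that is passaged, and this conflict was not settled. The labels name no engineered allele and no added interferon in either group, and all 6 cultures received the same growth factors. The labels do not say whether animals of a group shared a mother, so the spread among the 3 arrays may understate the spread between litters.

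Type I interferons bind the receptor subunits IFNAR1 and IFNAR2, and the kinases JAK1 and TYK2 then act on STAT2, which together with IRF9 is part of the complex ISGF3. ISGF3 binds interferon-stimulated response elements (ISREs) in the promoters of many induced genes, while interferon gamma acts mainly through gamma-activated sites (GAS). The products include sensors of foreign RNA, enzymes that attach or remove ISG15 and ubiquitin, proteins that block viral entry and translation, and the proteasome subunits, peptide transporter and beta-2 microglobulin of MHC class I presentation. Many cells, neural progenitors among them, hold a low level of some of these transcripts without added interferon.

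The promoters of these genes were read for the letters of those elements, because a shared element is what the genes could have in common beside the list itself. RefSeq promoter windows of GRCm38.p6, from 250 bases before the start site to 50 after it, were found for 32 of the 38 genes. The core of an ISRE was searched as TTTCNNTTTC on both strands. It was in at least 1 window of 15 of these 32 genes (46.9%), against 3.99% of the 27025 genes with a window in the RefSeq table. Of 94 other genes of the pathway, listed for comparison, 67 had a window and 20 of these held the core (29.85%), so matches are not particular to the 38 genes. At least 2 matches, overlapping ones included, were in 7 of the 36 windows of the listed genes (19.4%), against 0.225% of all 32851 windows. For the other pathway genes it was 7 of 77 windows (9.09%). The letters of a GAS, TTCNNNGAA, which read the same on both strands, were in 9 of the 32 genes (28.1%). The share was 17.9% of the other pathway genes with a window and 9.55% of all genes with a window. A match describes the letters only and does not show that a factor bound there. A missing match does not show that a gene lacks an ISRE, which may differ in letters or lie outside the window.

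Not all 15 genes with a match are shown, and Ifit3 and Eif2ak2 are among those left out. The following 30-base stretches are examples that hold 2 or 3 matches, or 1 match in Stat2 and B2m. They are written 5′ to 3′ on the strand of the gene, with every base of an ISRE match in capitals; GAAA in the shown strand is TTTC on the other.
Trim21: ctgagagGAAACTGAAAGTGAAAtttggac
Isg15: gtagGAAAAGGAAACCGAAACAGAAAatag
Bst2: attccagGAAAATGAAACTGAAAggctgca
Ifit1: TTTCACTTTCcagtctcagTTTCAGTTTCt
Gbp3: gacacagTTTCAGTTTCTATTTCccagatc
Ifitm3: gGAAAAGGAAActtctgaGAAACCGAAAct
Stat2: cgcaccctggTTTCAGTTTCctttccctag
B2m: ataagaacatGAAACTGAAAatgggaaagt

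In GRCm38.p6 the Trim21 stretch lies at chr7:102565447-102565476 on the minus strand, just after the start site, at bases 7 to 36 counted from the start site as base 1. Its 2 matches overlap and together cover bases 14 to 29. The Isg15 stretch (chr4:156200871-156200900, minus strand) holds 3 overlapping matches, and the Bst2 stretch (chr8:71537580-71537609, minus strand) holds 2. The stretches of Ifit1 (chr19:34640785-34640814, plus strand) and Gbp3 (chr3:142559992-142560021, plus strand) lie before the start site, and that of Ifitm3 (chr7:141010714-141010743, minus strand) after it. Those of Stat2 (chr10:128270266-128270295) and B2m (chr2:122147538-122147567), both on the plus strand, hold 1 match each. The windows of Psmb9 and Tap1, which are read in opposite directions, share 275 bases, and neither holds a match to the ISRE core. No window was found for Ly6e, Zbp1, Usp18, Parp14, Ifi27 and Mx2.

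The values are log2 signals as deposited, 1 per probe set and array, and the scale was inferred from their range (0.73 to 13.81). Probe sets differ in how strongly they hybridise, so levels of different genes are not ranked against each other. To say which genes gave a signal, each was set against 5.02, below which lay 95% of 1394 genes of odorant and vomeronasal receptors, a family used mainly by sensory neurons of the nose. 27 of the 35 genes (77.1%) lay above this reference level in both groups, against 61.9% of all genes tested, and 7 lay below it in both; Cxcl10 was above it by its PBS mean only. Markers of neural stem and progenitor cells checked the label of the cultures: all 13 measured, such as Nes, Sox2, Fabp7 and Olig2, exceeded it in PBS and in MG. Their mean level was 10.24 to 10.41 in PBS and 10.39 to 10.43 in MG.

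**Figure D1:**
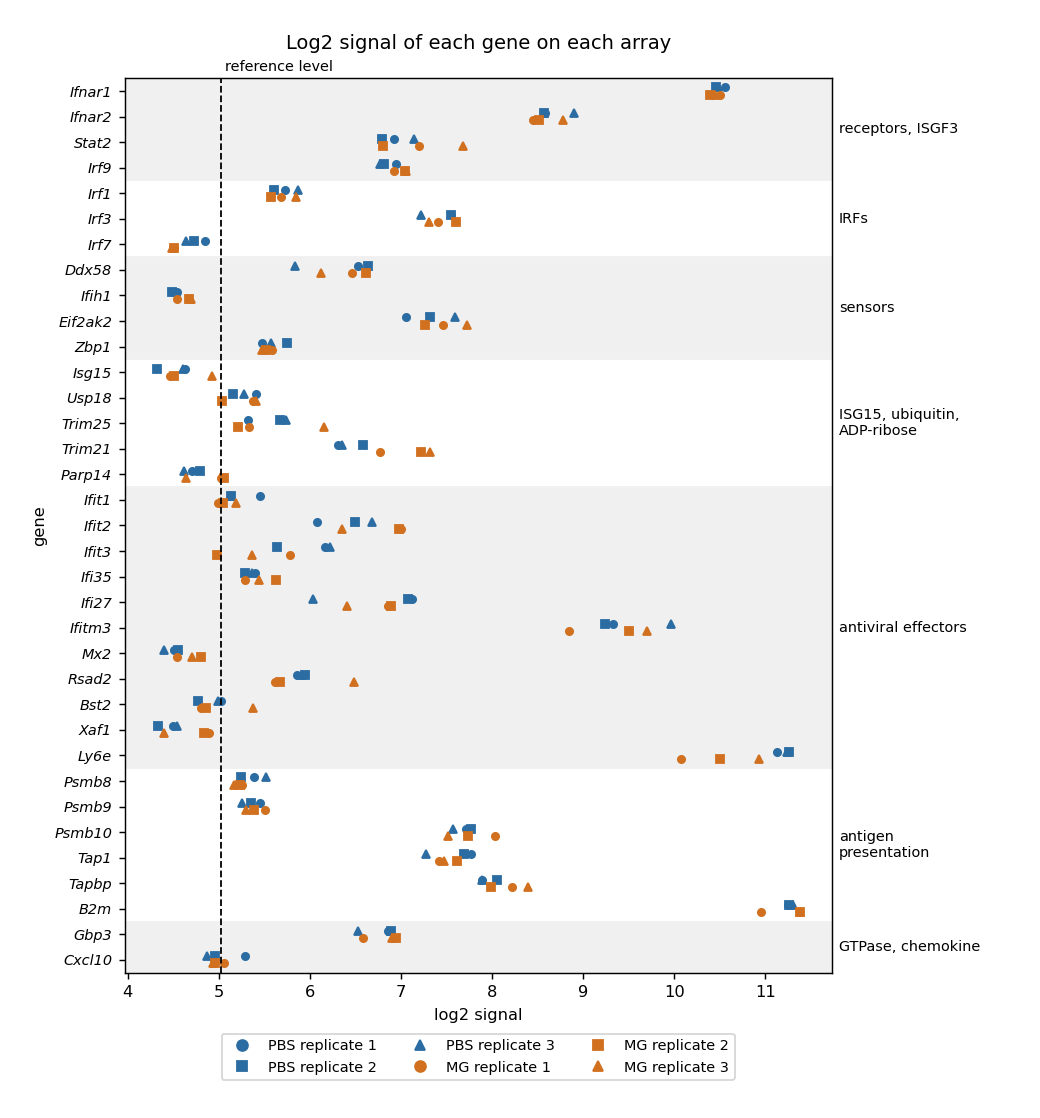
Log2 signal (horizontal axis) of the 35 genes (vertical axis, grouped by role) on each of the 6 arrays. Each symbol is 1 array, blue for PBS and orange for MG, and the dashed line is the reference level of 5.02; 27 genes have both group means to its right, and the symbols of the groups are apart in Trim21, Ly6e and Irf7.

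Interferon receptors and the transcription factor subunits STAT2 and IRF9 were measurable on every array. Ifnar1, 1 chain of the type I interferon receptor, stood at 10.56, 10.46 and 10.49 in PBS, against 10.50, 10.40 and 10.45 in MG, in the order of replicates 1, 2 and 3 here and for the other genes. It had the narrowest range of the 35 genes, 0.16. Ifnar2, the other chain, ranged from 8.45 to 8.90, and its groups overlapped. Stat2 was at 6.92, 6.79 and 7.14 in PBS, against 7.20, 6.80 and 7.68 in MG. MG replicate 3 was the highest array for Stat2, while MG replicate 2 lay at the level of PBS replicate 2. Irf9 was at 6.94, 6.81 and 6.77 in PBS and 6.92, 7.04 and 7.06 in MG, with PBS replicate 1 above the lowest MG array. The log2 differences between MG and PBS were -0.05 for Ifnar1 (standard error 0.11), -0.10 for Ifnar2 (0.15), 0.27 for Stat2 (0.22) and 0.17 for Irf9 (0.12).

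Of the interferon regulatory factors, Irf3 and Irf1 were above the reference level on all arrays and Irf7 on none. Irf3, a factor present before infection that switches on interferon beta, ranged from 7.22 to 7.60, and its group means differed by less than 0.01. Irf1, an induced factor that acts on antigen presentation genes, ranged from 5.57 to 5.87, with a log2 difference of -0.03 (standard error 0.13). Irf7, the induced factor that amplifies interferon alpha synthesis, was at 4.84, 4.73 and 4.64 in PBS, against 4.51, 4.50 and 4.48 in MG. All 6 values were under the reference level, so that the separation of the groups of Irf7 concerns a signal not told apart from that of receptor genes, and no fold is given.

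The sensors of RNA and of left-handed nucleic acids were a mixture of measurable and dim genes. Eif2ak2, which encodes the double-stranded RNA kinase PKR, was at 7.05, 7.32 and 7.60 in PBS and 7.46, 7.26 and 7.72 in MG, and the groups overlapped. Ddx58 ranged from 5.84 to 6.64 and was lowest in replicate 3 of both groups. Zbp1, a sensor that can start necroptosis, lay between 5.47 and 5.74. Ifih1, which encodes the RNA sensor MDA5, was under the reference level on all 6 arrays, at 4.49 to 4.69. The log2 differences of the 4 sensors ran from -0.07 to 0.16.

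ISG15 is a ubiquitin-like protein that interferon induces strongly in most cells, and its transcript was below the reference level on all 6 arrays. Isg15 was at 4.63, 4.32 and 4.60 in PBS and 4.46, 4.51 and 4.93 in MG, with MG replicate 3 the highest. Usp18, which removes ISG15 from proteins and restrains the receptor, was just above the reference level on every array, at 5.03 to 5.41. Trim25, a ubiquitin ligase that acts on RIG-I, was at 5.32, 5.67 and 5.74 in PBS and 5.33, 5.20 and 6.16 in MG. MG replicate 3 was again the highest array, and the other 2 MG arrays lay close to or below the lowest PBS array. Parp14, an ADP-ribosyltransferase, was above the reference level on 2 of the 6 arrays, both of MG, with a log2 difference of 0.21 (standard error 0.15). Its neighbour in function Dtx3l, a ubiquitin ligase, shares its probe set with Parp9. The shared probe set was at 6.07, 6.00 and 6.15 in PBS and 6.40, 6.12 and 6.64 in MG, and cannot be assigned to either gene.

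Trim21, which encodes a cytosolic antibody receptor and ubiquitin ligase, had a higher mean in the MG cultures. It was at 6.31, 6.59 and 6.35 in PBS, against 6.77, 7.22 and 7.32 in MG. The lowest MG array, replicate 1, lay 0.19 above the highest PBS array, and the other 2 MG arrays lay further away. The means were 6.41 ± 0.15 and 7.10 ± 0.29 (SD, n = 3 each), so that MG was higher by 0.69 (standard error 0.17), or 1.61-fold. Of 16 other TRIM genes measured, 9 had higher and 7 lower means after MG, with log2 differences from -0.21 to 0.17, and none passed limma's test over all genes (adjusted p of 0.9998 or more for each).

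Among the antiviral effectors, Ly6e and Ifit3 had lower means in MG and Ifit2 a higher one. Ly6e encodes a cell-surface protein that interferon induces and that is also made without interferon in stem cells. It was at 11.13, 11.26 and 11.24 in PBS and 10.07, 10.50 and 10.93 in MG. The PBS arrays lay close together, while the MG arrays were all lower and lay further from each other. The means were 11.21 ± 0.07 and 10.50 ± 0.43 (SD, n = 3 each), which gave a difference of -0.71 (standard error 0.20), or 1.64-fold lower. Leaving out MG replicate 1, the lowest, the log2 difference was -0.50. Of 11 other measured genes of the Ly6 family, 5 had higher and 6 lower means, from -0.32 to 0.21, and 5 exceeded the reference level in PBS and in MG. None of the 11 passed limma's test over all genes (adjusted p of 0.9998 or more for each).

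The IFIT proteins bind foreign RNA and stop its translation. Their 3 genes lie on chromosome 19, and their differences did not share a sign. Ifit3 was at 6.16, 5.64 and 6.22 in PBS and 5.78, 4.97 and 5.37 in MG, a log2 difference of -0.63 (standard error 0.23). The groups of Ifit3 overlapped, since MG replicate 1 was above PBS replicate 2. Ifit2 was at 6.07, 6.50 and 6.68 in PBS and 7.00, 6.97 and 6.36 in MG, a log2 difference of 0.36 (standard error 0.22), and MG replicate 3 fell within the PBS range. Ifit1 lay between 4.99 and 5.45, close to the reference level. Mouse IFIT genes have closely similar copies, Ifit3b beside Ifit3, so their values are uncertain where copies share a probe set's signal.

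Ifitm3 and Ifi27 ranged widely over the arrays, by 1.12 and 1.09, while their group means differed little. Ifitm3, which hinders the entry of viruses into cells and is also made by unstimulated stem cells, was at 9.33, 9.24 and 9.96 in PBS and 8.85, 9.51 and 9.70 in MG. Replicate 3 was the highest array of each group for Ifitm3, and the log2 difference between groups was -0.16 (standard error 0.27). Ifi27, a mitochondrial and nuclear membrane protein gene, was at 7.12, 7.07 and 6.04 in PBS and 6.85, 6.89 and 6.40 in MG, and replicate 3 was the lowest of each group. Rsad2, which encodes viperin, stood between 5.62 and 5.95 on 5 arrays and at 6.49 on MG replicate 3. Ifi35 lay between 5.28 and 5.62, and its second probe set differed by -0.02 between groups where the first differed by 0.10. Bst2, the tether of budding viruses, was above the reference level on 2 arrays, and Mx2 and Xaf1 on none. Ifi44 was not matched to a probe set and is not analysed here.

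**Figure D2:**
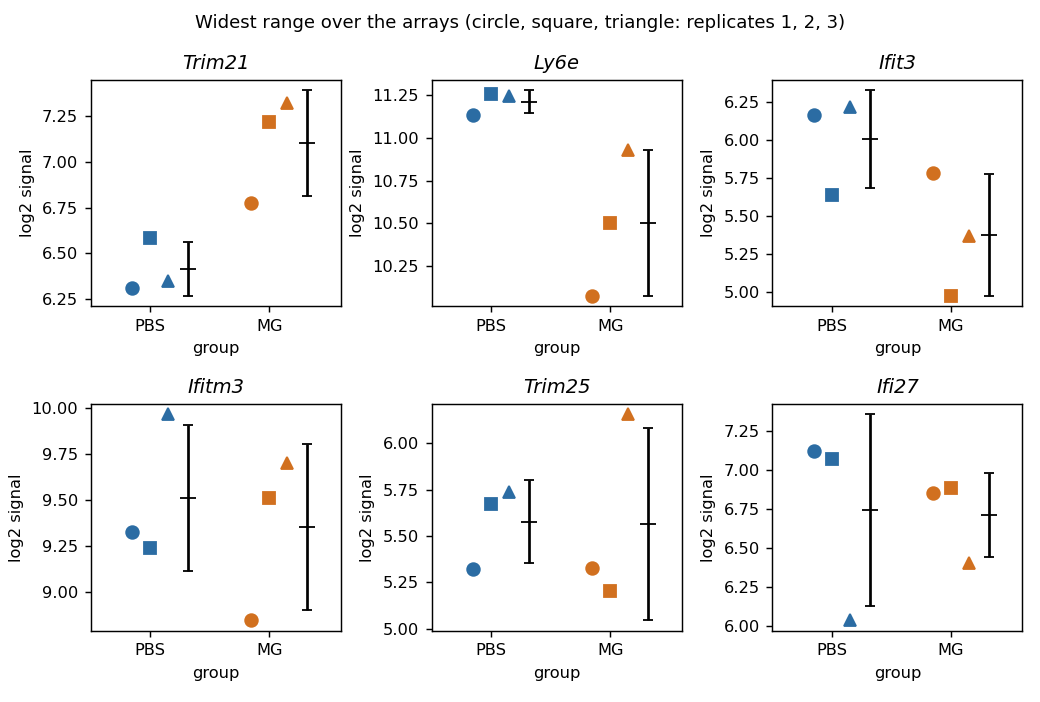
Log2 signal (vertical axis, a different range in each panel) by group for the 6 genes with the widest range over the arrays among those above the reference level in both groups. Circles, squares and triangles are replicates 1, 2 and 3, and bars show the group mean and SD of 3 arrays; the groups are apart for Trim21 and Ly6e, and replicate 3 is the highest or the lowest of both groups for Ifitm3, Trim25 and Ifi27.

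The genes of MHC class I presentation were above the reference level in all 6 cases and differed little between groups. B2m, the light chain of class I molecules, was at 11.25, 11.26 and 11.30 in PBS and 10.96, 11.38 and 11.38 in MG. MG replicate 1 was below all PBS arrays and the other 2 MG arrays were above them, and the means differed by -0.04 (standard error 0.15). Tap1, a chain of the peptide transporter, ranged from 7.27 to 7.77 and Psmb10, an immunoproteasome subunit, from 7.51 to 8.04. The immunoproteasome genes Psmb8 and Psmb9 were nearer to the reference level, at 5.17 to 5.51 and 5.26 to 5.51. Psmb9 and Tap1, which share a promoter region, had log2 differences of 0.04 and -0.08. Tapbp, which encodes the peptide editor tapasin, was at 7.89, 8.05 and 7.89 in PBS and 8.22, 7.98 and 8.39 in MG, a log2 difference of 0.25 (standard error 0.14). Its second probe set was at 6.58, 6.84 and 6.26 in PBS and 7.03, 6.86 and 6.87 in MG, a log2 difference of 0.36. On that probe set the groups did not overlap, which held for 7.44% of all probe sets naming 1 gene. MG replicate 2, the lowest MG array there, lay just above PBS replicate 2.

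The guanylate-binding protein gene Gbp3, an interferon gamma target, lay between 6.53 and 6.94, with a log2 difference of 0.05. Cxcl10, a chemokine that interferons induce and that draws T cells, was above the reference level on 2 of the 6 arrays, at 4.87 to 5.28. Gbp2 shares its probe set with Gbp2b, which was at 5.15 to 5.52 in PBS and 5.20 to 5.57 in MG.

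Across the 35 genes, 19 had higher and 16 lower means after MG (54.3% higher, against 53.8% of all genes tested). The median log2 difference was 0.021, against 0.013 over all genes, with Ly6e at one end (-0.71) and Trim21 at the other (0.69). The groups did not overlap in 3 of the 35 genes (8.57%), against 7.34% of all genes tested. By the probe set used for each gene, Trim21 was the 1 gene with all MG arrays higher, which held for 4.03% of all genes. Ly6e and Irf7 were the 2 with all MG arrays lower, which held for 3.31%. These shares are near the background, and the rule already used this comparison, so nothing is read from them. The standard error of a gene's difference had a median of 0.15 over the 35 genes.

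**Figure D3:**
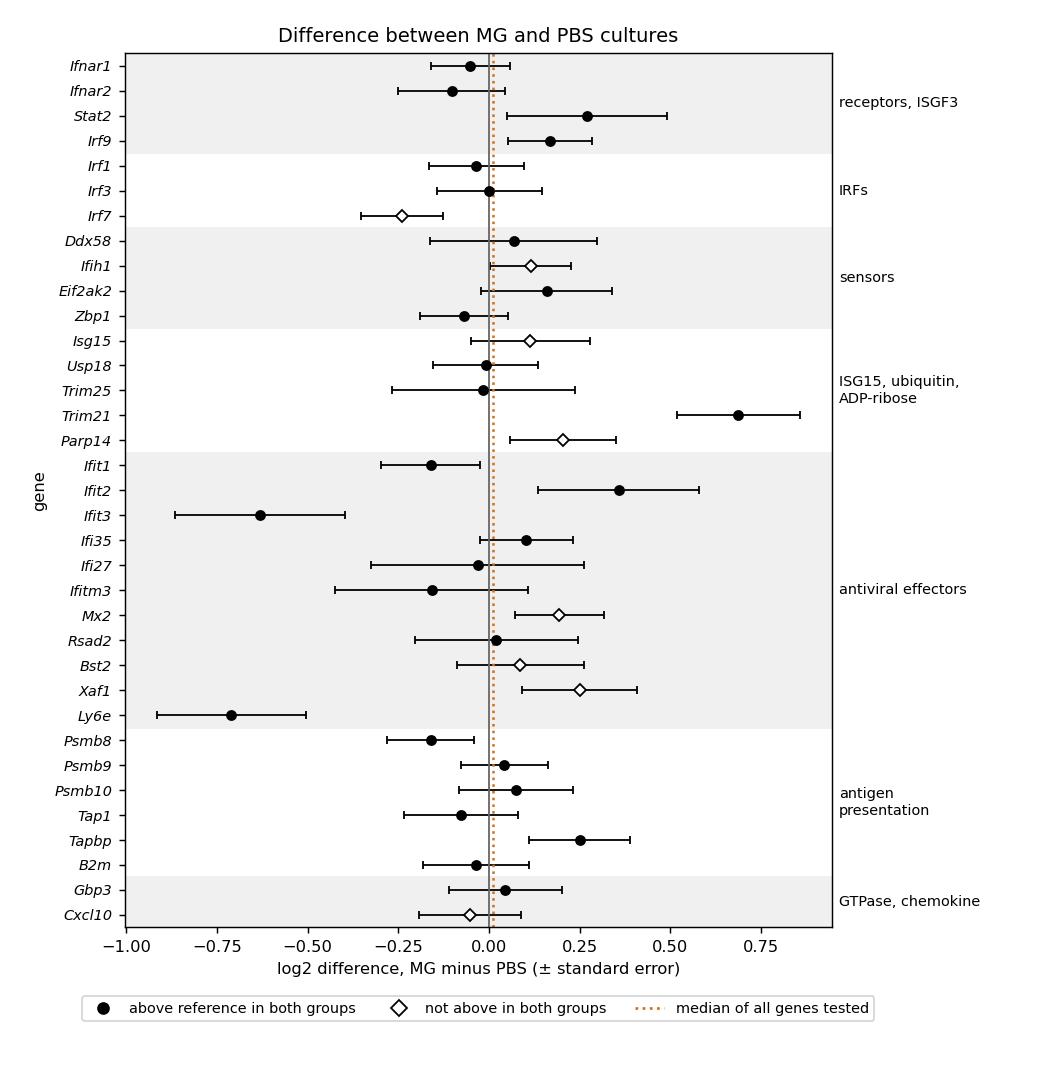
Log2 difference between MG and PBS (horizontal axis, MG minus PBS, bars of 1 standard error from limma) for the 35 genes (vertical axis). Open diamonds are genes not above the reference level in both groups and the dotted line is the median of all genes tested, 0.013; most genes lie near it, with Trim21 at 0.69, Ifit3 at -0.63 and Ly6e at -0.71.

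No gene of the whole table passed the test. With limma's moderated test over 22180 genes and Benjamini-Hochberg adjustment, 0 genes (0%) had an adjusted p under 0.05, and 712 (3.21%) had an unadjusted p under 0.05. The ordinary linear model without moderation gave 0 and 712. The other genes of the pathway were taken from a list of 94, of which 87 had a probe set of their own. None of the 87 passed in either direction, and none had an unadjusted p under 0.05. Of the 87, 52 had higher and 35 lower means, and their differences ran from -0.36 to 0.39 around a median of 0.028.

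The 4 of these genes with the smallest unadjusted p among those above the reference level were Tapbpl, H2-K1, Parp12 and Erap1. H2-K1, a class I heavy chain, was at 9.24, 9.36 and 8.72 in PBS and 8.69, 8.78 and 8.89 in MG. PBS replicate 3 lay within the MG range, and the log2 difference was -0.32 (95% confidence interval -0.73 to 0.10). Tapbpl, a relative of tapasin, differed by -0.27 (-0.59 to 0.05), Parp12, an ADP-ribosyltransferase, by 0.25 (-0.09 to 0.59), and Erap1, which trims peptides for class I molecules, by 0.24 (-0.15 to 0.63). Tap2, the second chain of the transporter, differed by 0.18 (-0.13 to 0.48). The adjusted p of each of these genes in limma was 0.9998. H2-D1 shares its probe set with H2-Q2, at 4.90 to 5.21 in PBS and 4.93 to 5.29 in MG. H2 genes are closely similar, so the value of H2-K1 is uncertain in the same way as those of the IFIT genes.

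By function, 14 of 29 measured induced effectors outside the list of 38 exceeded the reference level in PBS and in MG, as did 4 of 13 GTPase and chemokine genes. By comparison 13 of 16 receptor, kinase and transcription factor genes were above it, 10 of 12 sensors and adaptors, and 15 of 17 antigen presentation genes. The interferon beta gene Ifnb1 was at 3.12 in both groups and below the reference level on all arrays. Of 6 interferon genes other than the alpha family, 2 were above it, Ifnl2 and Ifnl3, which are near-identical copies.

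Among the 35 genes, those with an ISRE match in a RefSeq window were above the reference level in 10 of 14 cases, those without one in 13 of 15, and those with no window in 4 of 6. The median log2 difference between MG and PBS was 0.057 with a match (9 higher, 5 lower) and less than 0.01 without one (8 higher, 7 lower). Isg15 has the densest run of matches and was under the reference level. Trim21, with 2 matches, and Ifit3, also with 2, had differences of opposite sign. No share or median of these groups was tested, and genes without a match may still have an ISRE.

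The arrays numbered 3 stood apart from the others in both groups, and this showed in some of the 35 genes. Replicate 3 differed from the mean of replicates 1 and 2 of its own group in the same direction in PBS and MG for 22 of the 35 genes (62.9%), against 62.9% of all genes tested. Of the 22, 12 were higher and 10 lower on both arrays. Ifi27 was lower by 1.06 in PBS and 0.47 in MG, and Ddx58 by 0.74 and 0.43. Ifitm3 was higher by 0.68 and 0.52, Eif2ak2 by 0.41 and 0.36, Ifnar2 by 0.32 and 0.29 and Stat2 by 0.29 and 0.68. In 18 of the 35 genes, both of these distances were larger than the difference between MG and PBS (51.4%, against 55.3% of all genes tested). Ifit2 went in opposite directions, higher by 0.39 in PBS and lower by 0.63 in MG.

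**Figure D4:**
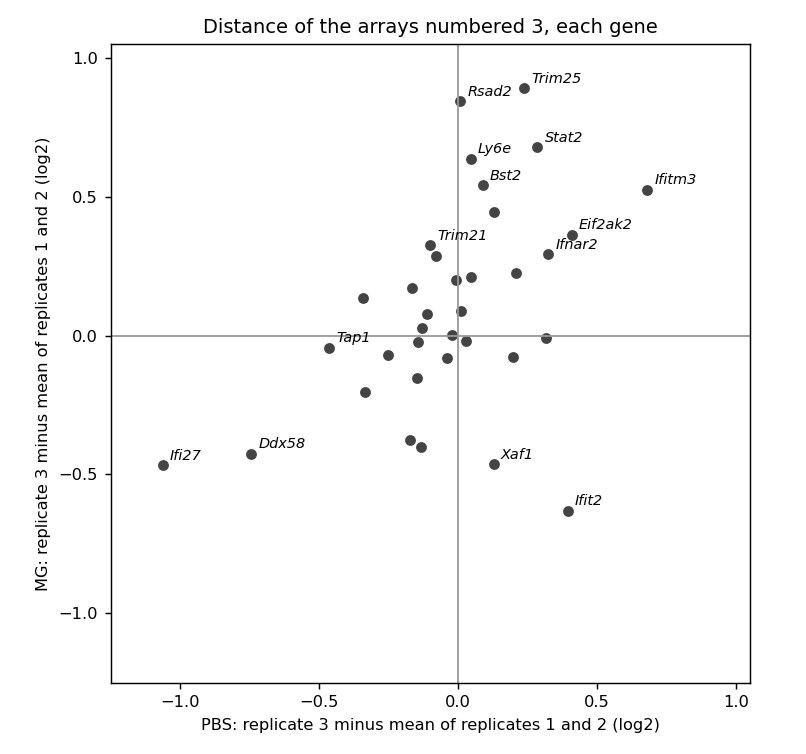
Log2 distance of replicate 3 from the mean of replicates 1 and 2 in PBS (horizontal axis) and in MG (vertical axis), with 1 point for each of the 35 genes. Points at the upper right and lower left have the same sign in both groups (22 of 35); Ifi27 and Ddx58 are at the lower left, Ifitm3 at the upper right and Ifit2 at the lower right.

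The mean of 19 DNA replication genes, each centred on its mean over the 6 arrays, reached 0.45 in PBS replicate 3 and 0.49 in MG replicate 3, whereas the other 4 arrays ran from -0.42 to -0.12. The mean of the 35 interferon and presentation genes, centred the same way, stood at -0.03 and 0.08 on these 2 arrays, whereas the other 4 ran from -0.04 to 0.01. MG replicate 3 was the highest of the 6 arrays for 11 of the 35 genes (31.4%), among them Stat2, Trim25, Trim21, Rsad2, Isg15 and Eif2ak2, against 25.1% of all genes tested and 30.5% of those above the reference level. The part of DNA replication in these values was not tested.

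Microglia and vascular cells carry interferon and presentation genes at high levels, and their markers were looked at beside the list. Of 16 microglia and macrophage markers, 6 were above the reference level on all 6 arrays: Cd68 (means of 7.35 in PBS and 7.24 in MG), Cx3cr1 (5.94 and 5.84), C1qa (5.63 and 5.60), Trem2, P2ry12 and Fcer1g. Ptprc, Itgam, Aif1, C1qb, C1qc, Ctss and Laptm5 were below it on all arrays. The mean level of the list was 4.90 to 5.02 in PBS and 4.88 to 4.94 in MG. Among the 16, 12 had lower and 4 higher means after MG (25% higher, against 53.8% of all genes tested). Csf1r and Ctss were the 2 of the 16 whose groups did not overlap (12.5%, against 7.34% of all genes tested). Both were lower after MG, with log2 differences of -0.25 and -0.37. Csf1r was above the reference level on 4 arrays and Ctss on none. Of 8 T, B and NK cell markers 1 was above, Nkg7, and the mean level was 4.39 on each PBS array and 4.21 to 4.48 in MG. Of 10 endothelial markers 4 were above, with mean levels of 4.83 to 5.07 in PBS and 4.66 to 4.90 in MG. Means after MG were lower for 7 of the 10 and higher for 3 (30%, against 53.8% of all genes tested). Endothelial cells also make Ly6e and class I molecules, and these bulk values do not say which cells the transcripts came from. Flt1 (means of 7.04 in PBS and 7.24 in MG) and Kdr (6.47 and 6.57), which encode VEGF receptors, were above the reference level on all arrays, and Tek, Tie1, Emcn and Slco1a4 were below it on all arrays. The groups did not overlap in 3 of the 10 endothelial markers (30%, against 7.34% of all genes tested), all 3 lower after MG. Their log2 differences were -0.51 for Esam, -0.46 for Slco1a4 and -0.36 for Tie1. Slco1a4 and Tie1 were under the reference level on all arrays. Esam was just above it on the 3 PBS arrays (5.06, 5.05 and 5.10) and under it in MG (4.75, 4.67 and 4.24). The separations of these genes therefore concern dim signals, under or close to the reference level. Of the 4 markers above it in both groups, Flt1 and Kdr had higher means after MG (0.20 and 0.10). Pecam1 and Cdh5 had lower ones (-0.10 and -0.02). Of 8 pericyte and fibroblast markers 4 were above. The mean level of the 8 was 4.86 to 4.97 in PBS and 4.68 to 4.72 in MG. These levels did not overlap, but all were under the reference level. Means after MG were lower for 7 of the 8 and higher for 1 (12.5%, against 53.8% of all genes tested). Col1a1 and Dcn were the 2 of these 8 whose groups did not overlap (25%, against 7.34% of all genes tested), with log2 differences of -0.26 and -0.40. Col1a1 was above the reference level on all 6 arrays and Dcn below it on all 6. The part of these cells in the lower Ly6e values was not tested. In bulk cultures fewer cells of a type and less RNA per cell cannot be told apart.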

How the data were processed

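Expression was measured in 6 neurosphere cultures on Affymetrix Mouse Gene 2.0 ST arrays. The authors deposited log2 signals, 1 per probe set and array. Per the submitters' processing notes, Partek 6.6 was used; the background correction, normalisation, summarisation and genome build were not given in the sources used here. Of 41345 probe sets, 23521 named 1 gene in the platform annotation, 1814 several and 16010 were unnamed here; symbols were updated through the RefSeq table of GRCm38.p6. Where a gene had several (1082 genes), the brightest on average was kept.

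MG was compared with PBS over all 22180 genes in R 4.3.3 by the two-sided moderated test of limma 3.58.1, without covariates and with a Benjamini-Hochberg threshold of 0.05; the steps were checked on simulated data. Precision is limited by the number of arrays. P-values measure the spread between 3 cultures of a group.

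The genes, lists and tests were chosen with earlier results of these data known. Values on every array were to be given for Trim21, Ly6e, genes above the reference level with no overlap between groups, the 6 of these brighter genes with the widest range, and B2m, Stat2, Ifnar1, Irf9, Isg15 and Ifitm3. Of other pathway genes, H2-K1, H2-D1, Tap2 and the 4 above the reference level with the smallest p were named. Ifit2, Tapbp, Eif2ak2, Irf7, the probe set shared by Dtx3l and Parp9 and that of Parp9 alone were added after their values were seen. So were the cell type markers named with values. Others are given by range. Promoter windows are from RefSeq; the authors' data hold no sequence. Alternatives were other probe set rules, normalisations, moderation, weights for arrays, a block for the replicate number, dim genes left out, other reference levels and arrays left out. Figures were drawn with matplotlib 3.10.9.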

Additional observations from a re-analysis of the deposited data

How the results depend on the processing

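No alternative gave a gene past the adjusted threshold, among all genes or among the other pathway genes: the count was 0 in all 16 settings, with the smallest adjusted p between 0.110 and 0.99997 and between 268 and 1163 genes at an unadjusted p under 0.05. With 1 array left out, the log2 difference ran from 0.58 to 0.85 for Trim21 and from -0.92 to -0.50 for Ly6e. The median difference over the 35 genes ran from -0.028 (without MG replicate 3) to 0.096 (without MG replicate 1), and was -0.054 without both arrays numbered 3. The number of genes with no overlap between groups ran from 5 to 12 with 1 array left out, when 12.7% to 18.4% of all genes did not overlap. It was 11 of 35 without both arrays numbered 3, against 31.2% of all genes; smaller groups overlap less often. The number with a higher mean ran from 17 to 22. With the reference at the 99th percentile of the receptor genes, 17 of the 35 genes were above it in both groups. Of 520 values of the other 33 genes, 1 moved by more than the replicate SD, Ifit2 without both arrays numbered 3 (0.70), and 43, in 18 genes, turned sign; none was past a threshold. Deviations from the group mean correlated at 0.22, 0.04 and 0.45 between PBS and MG arrays of replicate numbers 1, 2 and 3. PBS replicate 1 correlated best with MG replicate 2 (0.23). The 3 deviations of a group are tied to each other, so these values do not settle whether the numbers pair the arrays. With the replicate number as a block, 0 genes passed and 1063 had an unadjusted p under 0.05; the differences themselves are the same by construction. The number of arrays and, for genes near the reference level, the signal over background limit what could be seen.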
